A study of Mus musculus with 10 samples.

Results

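The genes of the respiratory chain and of ATP synthase were followed across 5 sorted populations of mouse antigen-presenting cells. Members were taken by symbol. The nuclear ones begin with Nduf, Sdh, Uqcr or Atp5, and the mitochondrial ones are the protein genes of the mitochondrial genome. This gave 93 of the 22607 genes measured, of which 80 are nuclear and 13 mitochondrial. The nuclear members hold 38 genes of complex I and 8 of its Ndufaf assembly factors, 4 genes of complex II and 4 of its Sdhaf assembly factors, 8 genes of complex III and 18 of ATP synthase, which is also called complex V. The mitochondrial members hold 7 subunits of complex I, 1 of complex III, 3 of complex IV and 2 of ATP synthase. Nuclear subunits of complex IV have other symbols and are given with the related gene lists.

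The respiratory chain sits in the inner mitochondrial membrane. Complexes I and II take electrons from NADH and succinate, complexes III and IV pass them on to oxygen, and complexes I, III and IV pump the protons that drive ATP synthase. All but complex II are built from subunits of 2 genomes. Nuclear subunits are translated in the cytosol and imported, whereas the mitochondrial mRNAs are cut from long transcripts of the mitochondrial DNA and translated inside the organelle. Macrophages and dendritic cells are known to shift between respiration and glycolysis when they are activated or enter a tissue.

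Polyadenylated RNA came from wild-type C57BL/6 mice aged 8 weeks, from about 20000 to 50000 cells a library per the labels. The first set held colonic MHCII+ cells and splenic MHCII+ cells, that is cells with surface MHC class II. The second held 3 colonic subsets, namely CD11b+CD11c+ cells, CD11b+ cells and CD11c+ cells, which differ in the integrins CD11b and CD11c. Each group had 2 libraries, with 12806139 to 41769042 estimated counts each. Whether the 2 libraries of a group stem from different mice is not stated in the labels. The p-values therefore describe spread among libraries, and that spread may be technical. In bulk RNA, fewer cells of a type and less RNA per cell cannot be told apart.

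The sort could be read in the gate genes. Itgam, which encodes CD11b, had 108 and 113 TPM in CD11b+CD11c+ libraries, 115 and 113 TPM in CD11b+ libraries and 4.65 and 5.68 TPM in CD11c+ libraries. Itgax, which encodes CD11c, had 98.5 and 112 TPM in CD11b+CD11c+ libraries and 113 and 132 TPM in CD11c+ libraries, but was also present in CD11b+ libraries, at 74.2 and 81.1 TPM. Markers of other cells were found as well. Summed TPM of 12 epithelial markers was 3030.5 and 3096 in colonic MHCII+ libraries and at most 807 in the other colonic ones, and 8 plasma cell markers summed to 7296 to 27578 TPM in every colonic library.

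TPM, which corrects for coding length, ranked the members. The mitochondrial genes of complex IV and ATP synthase led. Over 10 libraries mt-Co2 averaged 4573 TPM (range 3139 to 6245), mt-Co1 4449 TPM (3129 to 6063) and mt-Atp6 4078 TPM (2909 to 5748), and these ranges overlap. mt-Nd5, the largest mitochondrial subunit of complex I, averaged 515 TPM (359 to 671) and was the lowest mitochondrial gene. The highest nuclear members were Atp5e (1246 TPM), the epsilon subunit of ATP synthase, and Uqcrh (585 TPM), the hinge subunit of complex III, followed by Atp5mpl (484 TPM), Atp5j2 (443 TPM) and Uqcrq (420 TPM). The highest of the nuclear complex I genes by symbol was Ndufa4 (397 TPM), which was named as a complex I subunit and has since been assigned to complex IV. Sdhd, a membrane anchor of complex II, had the highest mean of that complex at 73.7 TPM. Assembly factors were lower. Ndufaf8, the highest Ndufaf gene, averaged 26.4 TPM and Ndufaf6 the least of them, 3.35 TPM. Ndufa4l2, a paralog of Ndufa4 known to be induced by hypoxia, had at most 8 counts in a library (2.30 TPM). Sdhaf1 and a second gene with the symbol Atp5o, which starts inside the main one and runs on beyond its end, were listed at 0 in all libraries. These 3 genes did not pass the count filter, so 77 nuclear and all 13 mitochondrial members were tested in each comparison.

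The 13 mitochondrial genes took 4.79% and 3.16% of gene counts in colonic MHCII+ libraries 1 and 2, against 2.45% and 2.71% in splenic MHCII+ libraries. In the subsets they took 4.45% and 4.20% in CD11b+CD11c+ libraries, 4.01% and 3.50% in CD11b+ libraries and 3.6% and 3.41% in CD11c+ libraries. The colonic MHCII+ libraries lay further apart than those of any other group. The 80 nuclear genes took far less, 0.698% and 0.743% in colonic MHCII+ libraries against 0.492% and 0.518% in splenic MHCII+ libraries. Among subsets they took 0.471% and 0.428% in CD11b+CD11c+ libraries, 0.463% and 0.428% in CD11b+ libraries and 0.585% and 0.548% in CD11c+ libraries.

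The ratio of mitochondrial to nuclear counts separated the subsets. It was 9.46 and 9.82 in CD11b+CD11c+ libraries, 8.66 and 8.17 in CD11b+ libraries and 6.15 and 6.23 in CD11c+ libraries, with no overlap between any pair of subsets. In the MHCII+ set it was 6.86 and 4.25 in colonic libraries and 4.99 and 5.23 in splenic libraries, which overlap. An exact two-sided permutation test of 2 libraries against 2 cannot go below p = 0.33, which was its value for each pair of subsets, and it gave p = 1.0 for the MHCII+ pair.

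**Figure D1:**
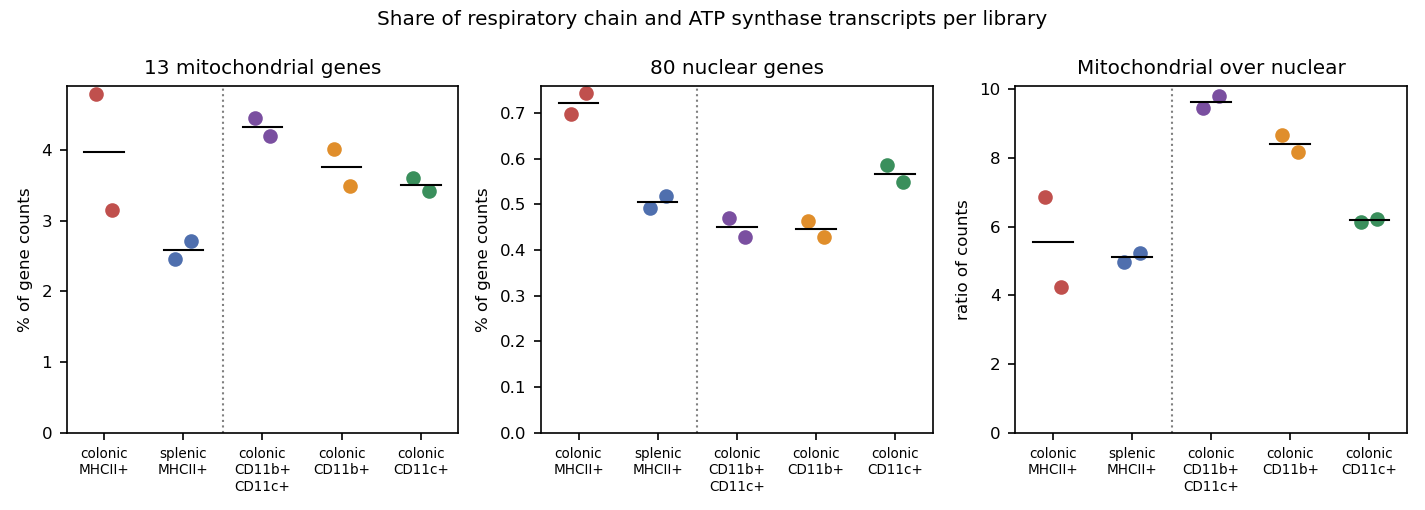
Percent of gene counts on the 13 mitochondrial genes and on the 80 nuclear genes, and the ratio of the 2, in each library (points) with the group mean (line). The dotted line parts the MHCII+ set from the subsets. The ratio is 9.46 and 9.82 in CD11b+CD11c+ libraries and 6.15 and 6.23 in CD11c+ libraries, and the colonic MHCII+ libraries are far apart.

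Colonic MHCII+ cells had more nuclear respiratory chain mRNA than splenic MHCII+ cells. Of 77 nuclear members tested, 52 were higher and 2 lower (edgeR quasi-likelihood test, with p adjusted by Benjamini-Hochberg across every gene tested and a threshold of 0.05), that is 67.5% and 2.6%, where 31.6% of all genes tested were higher and 28.7% lower. The median log2 fold change was 0.47 over nuclear members and 0.02 over all genes. All libraries of the colon lay above all of the spleen for 59 nuclear members and below for 9, which over all genes happened for 42.1% and 41.1%. Leaving out 1 library gave medians of 0.389 to 0.496 over nuclear members. Fewer nuclear members were called higher in every such fit, and so were fewer of all genes. Those counts therefore cannot be set against the 31.6% of the main test. With limma on log2(TPM + 1) 26 nuclear members were higher, and the median over all genes was -0.116. The share of all genes that limma called higher is not given here.

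The rise was in subunits, while assembly factors gave few calls. In complex I 27 of 37 genes rose and 1 fell, in complex II 3 of 4 rose, in complex III all 8 rose, and in ATP synthase 14 of 17 rose. Of the 8 Ndufaf factors none rose and 1 fell, and of 3 Sdhaf factors tested none was called. The median log2 fold change was 0.45 for complex I subunits against -0.23 for the Ndufaf factors, which are expressed at lower levels. The difference between subunits and factors was not tested.

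Uqcr10, a small subunit of complex III, showed the largest rise. It had 68.4 and 71.9 CPM, which is counts scaled to the TMM-normalized library size, in colonic MHCII+ libraries, against 27.7 and 31.4 CPM in splenic MHCII+ libraries, a log2 fold change of 1.25 ± 0.11 (SE, adjusted p = 0.00015). It stayed called without any 1 library. The other complex III genes rose as well, with log2 fold changes between 0.41 for Uqcrc2, a core protein, and 0.97 for Uqcrq, and Uqcrfs1, the iron-sulfur protein that passes on the electrons, gave 0.84. In complex II, Sdhc and Sdhd, its membrane anchors, gave 0.94 and 0.84 and Sdhb, its iron-sulfur subunit, 0.75. Sdha, the flavoprotein that oxidises succinate, was not called (0.12, adjusted p = 0.27). Uqcrh, the most abundant nuclear gene of complex III, had 145 and 178 CPM in colonic MHCII+ libraries, against 105 and 108 CPM in splenic MHCII+ libraries (0.60 ± 0.12, adjusted p = 0.0052). Sdhd was at 0.559 without colonic MHCII+ library 1 and Sdhb at 0.475 without colonic MHCII+ library 2, and Uqcrc2 was not called without either splenic MHCII+ library (edgeR adjusted p = 0.057 and 0.062).

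In complex I, Ndufa5 had 18.1 and 27.3 CPM in colonic MHCII+ libraries, against 11.01 and 10.1 CPM in splenic MHCII+ libraries (log2 fold change 1.10 ± 0.23, adjusted p = 0.0062). Ndufb9, an accessory subunit, gave 1.06, and Ndufv1, which binds NADH, gave 0.99. Ndufb3 went the other way. This accessory subunit had 26.6 and 30.4 CPM in colonic MHCII+ libraries, against 35.7 and 37.3 CPM in splenic MHCII+ libraries (-0.36 ± 0.13, adjusted p = 0.046). Ndufaf3, an assembly factor, had 8.23 and 10.6 CPM in colonic MHCII+ libraries and 12.9 and 15.4 CPM in splenic MHCII+ libraries (-0.59 ± 0.21, adjusted p = 0.049). The libraries did not overlap for these genes, but neither fall was called with DESeq2 size factors or with DESeq2, nor in edgeR without colonic MHCII+ library 1 or either splenic MHCII+ library (adjusted p = 0.07 to 0.22). Ndufa4 had 65.5 and 81.5 CPM in colonic MHCII+ libraries and 62.8 and 68.4 CPM in splenic MHCII+ libraries, which overlap, and was not called (adjusted p = 0.31).

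ATP synthase makes ATP in its catalytic head, where the alpha and beta subunits are encoded by Atp5a1 and Atp5b. Atp5b had 1210.1 and 1273 CPM in colonic MHCII+ libraries, against 638 and 629 CPM in splenic MHCII+ libraries (0.97 ± 0.10, adjusted p = 0.00026), and Atp5a1 gave 0.86. Atp5e had 99.8 and 144 CPM in colonic MHCII+ libraries, against 85.2 and 86.2 CPM in splenic MHCII+ libraries (0.50 ± 0.17, adjusted p = 0.04). For Atp5e the log2 fold change was 0.212 without colonic MHCII+ library 2, and of the 4 fits without 1 library only that without colonic MHCII+ library 1 called it. The rotor ring is made of subunit c. In mammals 3 genes, Atp5g1, Atp5g2 and Atp5g3, encode the same mature subunit c behind different import sequences.

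The end of the coding sequence, which holds part of the mature subunit, shows how far the genes can be told apart by reads. The last 120 bases up to and including the stop codon are given from GENCODE M21 transcripts, in lower case, with capitals where Atp5g2 or Atp5g3 differs from Atp5g1. The genes lie on the minus strand of chromosomes 11, 15 and 2 (mm10).
Atp5g1: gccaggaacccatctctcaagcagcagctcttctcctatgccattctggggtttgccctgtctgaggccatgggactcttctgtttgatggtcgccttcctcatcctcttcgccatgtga
Atp5g2: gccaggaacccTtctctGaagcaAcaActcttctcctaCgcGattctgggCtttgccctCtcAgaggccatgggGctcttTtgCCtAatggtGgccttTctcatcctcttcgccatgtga
Atp5g3: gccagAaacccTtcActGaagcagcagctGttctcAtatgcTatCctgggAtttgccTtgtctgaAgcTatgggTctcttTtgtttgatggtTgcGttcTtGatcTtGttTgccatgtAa
Atp5g2 differs from Atp5g1 at 16 of these bases and Atp5g3 at 22, and the whole coding sequences share no stretch of 31 bases, the length kallisto matches by default, with each other or with any other gene of the index.

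The 3 genes did not move alike between colon and spleen. Atp5g3 had 236 and 287 CPM in colonic MHCII+ libraries, against 119 and 118 CPM in splenic MHCII+ libraries (1.14 ± 0.12, adjusted p = 0.0003). Atp5g1 had 89.0 and 86.5 CPM in colonic MHCII+ libraries, against 39.2 and 43.5 CPM in splenic MHCII+ libraries (1.09 ± 0.10, adjusted p = 0.00017). Atp5g2 had 117 and 67.2 CPM in colonic MHCII+ libraries and 96.2 and 108 CPM in splenic MHCII+ libraries, which overlap (-0.14 ± 0.24, adjusted p = 0.63). Whether the genes differ in their response was not tested. Of the summed TPM of the 3, Atp5g2 made 24.9% and 14.4% in colonic MHCII+ libraries and 36.0% and 38.2% in splenic MHCII+ libraries. The sum itself was 1019.9 and 903 TPM in colonic MHCII+ libraries, against 619.6 and 660.0 TPM in splenic MHCII+ libraries.

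**Figure D2:**
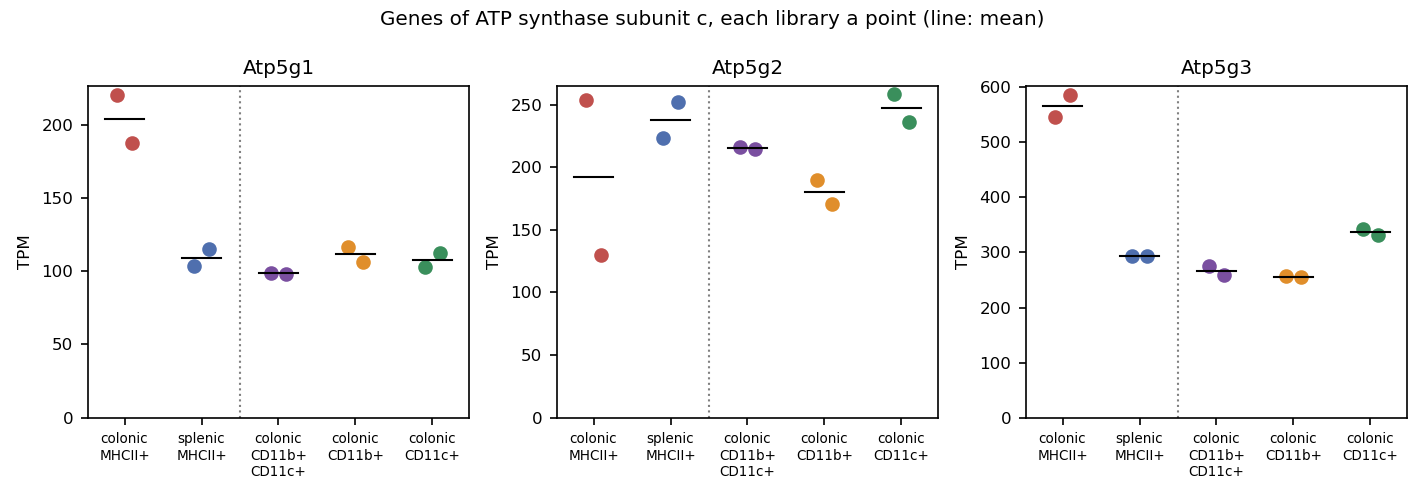
TPM of Atp5g1, Atp5g2 and Atp5g3 in each library (points) with the group mean (line); the dotted line parts the MHCII+ set from the subsets. Atp5g3 is at 546 and 585 TPM in colonic MHCII+ libraries and at 293 TPM in each splenic MHCII+ library, whereas Atp5g2 overlaps between these groups.

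The stretch before the transcription start was set out for Atp5g1, which rose, and Atp5g2, which did not. This pair was chosen after the values were seen. The 250 bases upstream of the RefSeq start (GRCm38.p6, minus strand, shown 5′ to 3′) are at chr11:96075632-96075881 for Atp5g1 and chr15:102671048-102671297 for Atp5g2, whose GENCODE gene reaches further upstream, to base 102672352. Capitals mark a core motif of nuclear respiratory factor 1 (NRF1), an activator of many respiratory chain genes, searched as GCATGCGC on both strands.
Atp5g1: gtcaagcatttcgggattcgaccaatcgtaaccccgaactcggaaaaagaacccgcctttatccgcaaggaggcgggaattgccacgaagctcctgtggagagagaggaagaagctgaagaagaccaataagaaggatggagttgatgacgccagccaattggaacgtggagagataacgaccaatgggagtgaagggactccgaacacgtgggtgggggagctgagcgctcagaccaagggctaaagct
Atp5g2: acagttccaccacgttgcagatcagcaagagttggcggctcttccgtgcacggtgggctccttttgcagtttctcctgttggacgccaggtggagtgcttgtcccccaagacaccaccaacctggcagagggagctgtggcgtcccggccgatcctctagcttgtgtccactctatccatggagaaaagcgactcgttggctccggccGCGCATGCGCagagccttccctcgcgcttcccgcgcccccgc
The motif is in the Atp5g2 stretch, as 2 overlapping matches on opposite strands, and these letters are not in the Atp5g1 stretch. They are not in the Atp5g3 stretch either, which is not shown. RefSeq promoters of 300 bases, from 250 before to 50 after the start, were matched for 65 of the 80 nuclear members. Of these, 11 (16.9%) held the NRF1 core, against 758 of 27025 promoters in all (2.8%). The ETS core CCGGAAG was in 17 members (26.2%) and 9.1% of all promoters, and the YY1 core AAGATGGCG in 7 members (10.8%) and 1.5% of all. Members with and without the NRF1 core had median log2 fold changes of 0.44 and 0.45 for colonic over splenic MHCII+ cells. A match describes the letters and not a bound site, and its bearing on the fold changes was not tested.

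The mitochondrial genes were higher in colonic MHCII+ cells too, but the number called hung on single libraries. Of 13 genes 8 rose (61.5%, where 31.6% of all genes were higher) and none fell, with a median log2 fold change of 0.64. mt-Co2, a catalytic subunit of complex IV, had 6001 and 5013 CPM in colonic MHCII+ libraries, against 2813 and 3170 CPM in splenic MHCII+ libraries (0.88 ± 0.14, adjusted p = 0.0019). mt-Co1 gave 0.77, mt-Co3 0.64, mt-Atp6 0.67 and mt-Atp8 0.69, so all mitochondrial genes of complex IV and ATP synthase were called. In complex I, mt-Nd1 (0.81), mt-Nd3 (0.69) and mt-Nd6 (0.62) rose, whereas mt-Nd2, mt-Nd4, mt-Nd4l and mt-Nd5 were not called. mt-Nd5 had 2139 and 1209.9 CPM in colonic MHCII+ libraries and 1337 and 1345 CPM in splenic MHCII+ libraries, so the second colonic library was below both splenic ones. mt-Cytb, the subunit of complex III, had 4146 and 2386 CPM in colonic MHCII+ libraries and 1975 and 2218 CPM in splenic MHCII+ libraries (adjusted p = 0.063).

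Without colonic MHCII+ library 1 the median over mitochondrial members was 0.23, and without colonic MHCII+ library 2 it was 0.97. Fewer of all genes were called higher in every fit without 1 library. The number of members called in such a fit therefore cannot be set against the 31.6% of the main test. Of the 8 called, mt-Nd1, mt-Co1, mt-Co2 and mt-Nd6 stayed called without any 1 library. Without colonic MHCII+ library 1 the log2 fold changes of mt-Nd1, mt-Nd3, mt-Co1, mt-Co3 and mt-Atp6 were 0.437, 0.26, 0.456, 0.219 and 0.228, and without splenic MHCII+ library 1 that of mt-Atp8 was 0.387. None was called with limma on log2(TPM + 1). The genes mt-Atp8 and mt-Atp6 overlap on the mitochondrial DNA, and their counts share reads. mt-Nd6 is the only gene on the minus strand, the other 12 being on the plus strand.

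Colonic and splenic MHCII+ libraries also differed in cell type markers. Of 12 epithelial markers all 12 were higher in the colon, with sums of 3030.5 and 3096 TPM in colonic MHCII+ libraries, against 16.9 and 22.4 TPM in splenic MHCII+ libraries. Plasma cell markers, 8 of 8 higher, summed to 10782 and 11152 TPM in colonic MHCII+ libraries, against 289 and 281 TPM in splenic MHCII+ libraries. Neutrophil markers, 9 of 10 lower, summed to 1128 and 776 TPM in colonic MHCII+ libraries, against 16684 and 24491 TPM in splenic MHCII+ libraries. B cell markers, 8 of 8 lower, summed to 59.5 and 55.5 TPM in colonic MHCII+ libraries, against 1072 and 1170 TPM in splenic MHCII+ libraries. Conventional dendritic cell markers, 7 of 9 lower and 1 higher, summed to 1066.5 and 742 TPM in colonic MHCII+ libraries, against 1166 and 1133 TPM in splenic MHCII+ libraries. Macrophage markers, 8 of 12 higher and 1 lower, summed to 2762 and 3634 TPM in colonic MHCII+ libraries, against 1009 and 1209 TPM in splenic MHCII+ libraries. Monocyte markers were lower for 6 of 7 and higher for 1, T cell markers lower for 7 of 10, and stromal and endothelial markers higher for 7 of 10 and lower for 3. No marker on these lists was at 0 in both libraries of either group, and the part of these cells in the result was not tested.

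**Figure D3:**
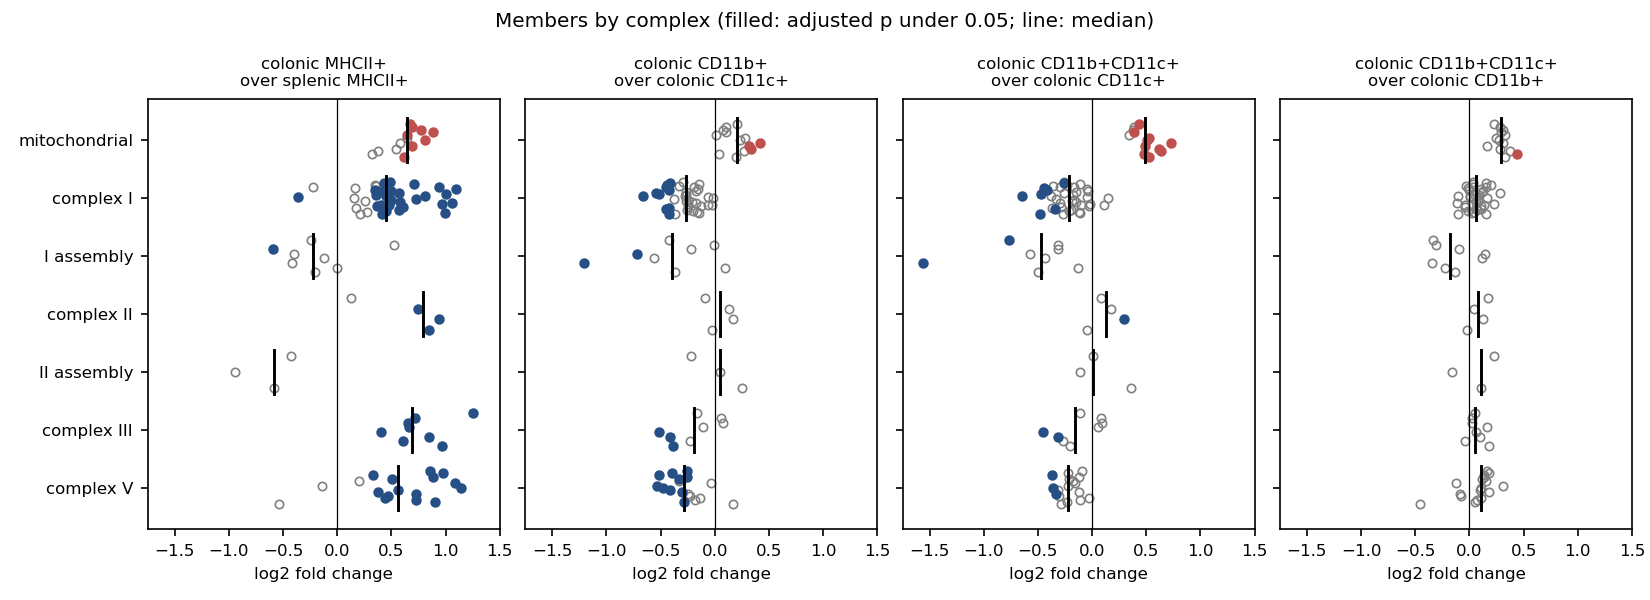
Log2 fold change of each tested member in the 4 comparisons, by complex, with the first-named group over the second; filled points (red mitochondrial, blue nuclear) passed an adjusted p of 0.05 and lines are medians. Nuclear subunits lie to the right for colonic over splenic MHCII+ cells (median 0.45 in complex I) and mostly to the left in both comparisons with CD11c+ cells, where mitochondrial genes lie to the right.

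Among colonic subsets the nuclear and mitochondrial genes parted. CD11b+ cells had less nuclear respiratory chain mRNA than CD11c+ cells. Of 77 nuclear members none was higher and 26 were lower (33.8%), where 27% of all genes were higher and 25% lower, and the median log2 fold change was -0.26 over nuclear members and -0.02 over all genes. All CD11b+ libraries lay below all CD11c+ libraries for 61 nuclear members and above for 4, against 40.8% and 39.8% of all genes. With 1 library left out the median over nuclear members was -0.316 to -0.239. In every such fit fewer nuclear members were called lower, and so were fewer of all genes. The excess of calls over the background was therefore not shown to hold in those fits. With limma on log2(TPM + 1) 14 nuclear members were lower, where 2177 of all genes were lower, against 3550 in the main test.

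Lower calls were made for 10 of 17 ATP synthase genes (58.8%), 11 of 37 complex I subunits (29.7%) and 3 of 8 complex III genes (37.5%). They were also made for 2 of 8 Ndufaf factors (25%), with none in complex II. As 25% of all genes were lower, the ATP synthase share stood far above the background. The shares of complex I and the Ndufaf factors were near it. Ndufaf6, an assembly factor of complex I, fell the most. It had 3.69 and 3.37 CPM in CD11b+ libraries, against 8.57 and 7.72 CPM in CD11c+ libraries (log2 fold change -1.21 ± 0.26, adjusted p = 0.01). Ndufaf4, another assembly factor, had 4.9985 and 5.77 CPM in CD11b+ libraries, against 9.82 and 7.84 CPM in CD11c+ libraries (-0.71 ± 0.20, adjusted p = 0.024). Ndufb11, an accessory subunit of the membrane arm of complex I, had 59.9 and 57.8 CPM in CD11b+ libraries, against 94.8 and 91.0 CPM in CD11c+ libraries (-0.66 ± 0.12, adjusted p = 0.0063). Ndufa9 had 62.8 and 62.3 CPM in CD11b+ libraries, against 95.5 and 86.1 CPM in CD11c+ libraries (-0.54 ± 0.10, adjusted p = 0.006). These 4 genes showed no overlap between the groups. Ndufb11 and Ndufa9 stayed called without any 1 library. Ndufaf6 was not called without CD11b+ library 1 or 2 (edgeR adjusted p = 0.053 and 0.063), nor Ndufaf4 without either of these or CD11c+ library 1 (adjusted p = 0.068 to 0.12).

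Ndufa4 was lower as well, with 53.8 and 54.1 CPM in CD11b+ libraries, against 70.4 and 74.9 CPM in CD11c+ libraries (-0.43 ± 0.10, adjusted p = 0.012). Uqcrc2, Uqcrfs1 and Uqcrq were the complex III genes that fell, by 0.52, 0.41 and 0.38 on the log2 scale. In ATP synthase the catalytic head took part, Atp5b with -0.40 and Atp5c1, the central stalk, with -0.51. Ndufa4, Uqcrfs1 and Uqcrq were not called without CD11b+ library 1 or 2, Uqcrq also without CD11c+ library 2, Uqcrc2 without CD11b+ library 1 and Atp5b without CD11b+ library 2 (edgeR adjusted p = 0.051 to 0.11). Sdhd had 39.9 and 35.8 CPM in CD11b+ libraries and 36.4 and 40.7 CPM in CD11c+ libraries, which overlap (adjusted p = 0.85).

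For subunit c the order differed from that between colon and spleen. Atp5g2 had 89.5 and 81.1 CPM in CD11b+ libraries, against 125 and 121 CPM in CD11c+ libraries (-0.53 ± 0.09, adjusted p = 0.0044). Atp5g3 had 115 and 114 CPM in CD11b+ libraries, against 157 and 162 CPM in CD11c+ libraries (-0.47 ± 0.08, adjusted p = 0.0054). Atp5g1 overlapped, with 48.9 and 44.5 CPM in CD11b+ libraries and 44.2 and 51.3 CPM in CD11c+ libraries (-0.03 ± 0.11, adjusted p = 0.83).

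The mitochondrial genes did not fall with them. In CD11b+ over CD11c+ cells 3 of 13 rose (23.1%, where 27% of all genes were higher) and none fell, a share close to the background, and the median log2 fold change was 0.21. The 3 were complex I genes. mt-Nd2 had 1584 and 1438 CPM in CD11b+ libraries, against 1134 and 1123 CPM in CD11c+ libraries (0.42 ± 0.10, adjusted p = 0.015), mt-Nd4 gave 0.34 and mt-Nd3 0.32. mt-Co1 had 12880.0 and 11452 CPM in CD11b+ libraries and 11615 and 11522 CPM in CD11c+ libraries, which overlap (adjusted p = 0.65). Leaving out 1 library gave medians of 0.125 to 0.256 over mitochondrial members. mt-Nd2 was then at 0.347 to 0.455, mt-Nd4 at 0.285 to 0.354 and mt-Nd3 at 0.267 to 0.352. No such fit kept all 3 calls, and in each of them fewer of all genes were called higher. DESeq2 called 7 and the fit over all 10 libraries called 0, and the share of all genes higher in these 2 is not given here.

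CD11b+CD11c+ cells showed the widest gap between the 2 genomes. Against CD11c+ cells 10 of 13 mitochondrial genes rose (76.9%, where 20.4% of all genes were higher) and none fell, with a median log2 fold change of 0.48, while over all genes the median was -0.09. All 13 had both CD11b+CD11c+ libraries above both CD11c+ libraries, which 32.7% of all genes did. Every one of the 7 complex I genes was called. mt-Nd2 had 1935 and 1813 CPM in CD11b+CD11c+ libraries, against 1134 and 1123 CPM in CD11c+ libraries (0.73 ± 0.10, adjusted p = 0.003). mt-Nd4l gave 0.64, mt-Nd4 0.62, mt-Nd6 0.52, mt-Nd1 0.51, mt-Nd3 0.48 and mt-Nd5 0.48. mt-Cytb, in complex III, had 4056 and 3914 CPM in CD11b+CD11c+ libraries, against 2780 and 2754 CPM in CD11c+ libraries (0.53 ± 0.11, adjusted p = 0.012). In complex IV mt-Co2 was called (0.39), and mt-Co1 (0.38, adjusted p = 0.053) and mt-Co3 (0.34, adjusted p = 0.053) were just outside the threshold. In ATP synthase mt-Atp6 was called (0.43) and mt-Atp8 was not (0.38, adjusted p = 0.13). Leaving out any 1 library gave a mitochondrial median of 0.436 to 0.577, and fewer of all genes were then called higher. All 7 complex I genes and mt-Cytb stayed called, mt-Co2 did not without any of the 4 libraries, and mt-Atp6 did not without either CD11c+ library or CD11b+CD11c+ library 1.

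**Figure D4:**
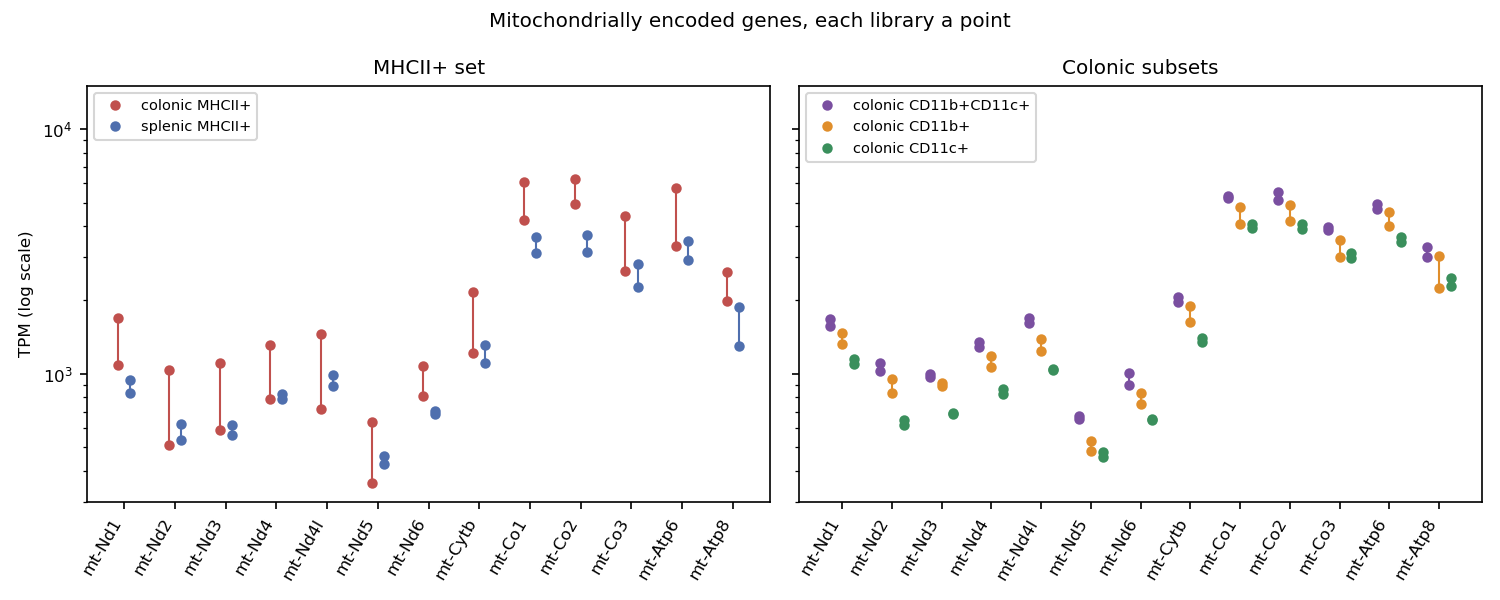
TPM of the 13 mitochondrial genes on a log scale, with each library a point and the libraries of a group joined. CD11b+CD11c+ libraries lie above CD11c+ libraries in all 13 genes, and for mt-Nd2, mt-Nd4l and mt-Nd5 the lower colonic MHCII+ library lies below both splenic MHCII+ libraries.

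Most nuclear members were lower in CD11b+CD11c+ cells than in CD11c+ cells by fold change, 67 of 77 being negative, but few calls were made. Of 77 tested 1 was higher (1.3%) and 14 were lower (18.2%), where 22.5% of all genes were lower, so the share called lower was near the background. The median log2 fold change was -0.21 over nuclear members and -0.09 over all genes. Both CD11b+CD11c+ libraries lay below both CD11c+ libraries for 51 nuclear members and above for 8, against 42.7% and 32.7% of all genes. Leaving out 1 library gave medians of -0.292 to -0.089 over nuclear members. Fewer nuclear members were called lower in every such fit, and so were fewer of all genes. DESeq2 size factors, DESeq2, no count filter and the fit over all 10 libraries gave 9 lower calls each. The share of all genes lower in those settings is not given here. Limma on log2(TPM + 1) gave 8, where 1876 of all genes were lower, against 3202 in the main test.

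Ndufaf6 again had the lowest fold change, with 3.39 and 2.10 CPM in CD11b+CD11c+ libraries, against 8.57 and 7.72 CPM in CD11c+ libraries (-1.56 ± 0.27, adjusted p = 0.0057). Ndufaf1, an assembly factor, had 7.53 and 6.77 CPM in CD11b+CD11c+ libraries, against 13.2 and 11.04 CPM in CD11c+ libraries (-0.76 ± 0.18, adjusted p = 0.018). Ndufb11 had 65.8 and 52.6 CPM in CD11b+CD11c+ libraries, against 94.8 and 91.0 CPM in CD11c+ libraries (-0.65 ± 0.12, adjusted p = 0.0081). Ndufv3, a peripheral subunit of complex I, had 27.2 and 26.1 CPM in CD11b+CD11c+ libraries, against 41.5 and 32.6 CPM in CD11c+ libraries (-0.48 ± 0.14, adjusted p = 0.035). The groups did not overlap for these 4 genes. Ndufa4 gave -0.44 and Atp5g3 -0.37, and both were called. Ndufv3 was at -0.299 without CD11c+ library 1, and neither it nor Ndufaf1 was called without that library or without either CD11b+CD11c+ library (edgeR adjusted p = 0.05 to 0.2). Ndufa4 and Atp5g3 were not called without CD11b+CD11c+ library 2 (adjusted p = 0.11 and 0.15).

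The nuclear gene that rose was Sdhc. It had 41.6 and 46.1 CPM in CD11b+CD11c+ libraries, against 36.1 and 35.4 CPM in CD11c+ libraries (0.29 ± 0.10, adjusted p = 0.049), and it was not called in any fit that left out a library of these groups, nor by limma on log2(TPM + 1). Sdhd overlapped between the groups, and Sdhb, with 74.5 and 74.8 CPM in CD11b+CD11c+ libraries and 65.4 and 67.1 CPM in CD11c+ libraries, was not called (0.17, adjusted p = 0.13).

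Both comparisons with CD11c+ cells use the same 2 CD11c+ libraries, so their values are not independent. Cell type markers, those of macrophages and dendritic cells among them, also differed. Macrophage markers, 11 of 12 higher in each comparison, summed to 10488 and 14812 TPM in CD11b+CD11c+ libraries and 11036 and 12900 TPM in CD11b+ libraries, against 310 and 2684 TPM in CD11c+ libraries. T cell markers, 10 of 10 lower in each, summed to 62.9 and 32.0 TPM in CD11b+CD11c+ libraries and 38.6 and 34.7 TPM in CD11b+ libraries, against 919 and 297 TPM in CD11c+ libraries. Plasma cell markers, 6 of 8 lower and 1 higher in each, summed to 9180 and 7296 TPM in CD11b+CD11c+ libraries. They summed to 12455 and 9789 TPM in CD11b+ libraries, against 21822 and 27578 TPM in CD11c+ libraries. Conventional dendritic cell markers, 8 of 9 lower in each, summed to 486 and 376 TPM in CD11b+CD11c+ libraries and 579 and 526 TPM in CD11b+ libraries, against 1191 and 1174 TPM in CD11c+ libraries. Cd24a is the highest of them by TPM, and the sums do not show the order of the other markers: in CD11b+CD11c+ over CD11b+ cells 8 of the 9 were higher and Cd24a was lower. Flt3, a receptor of dendritic cells and their precursors, had 142 and 79.4 CPM in CD11b+CD11c+ libraries and 24.2 and 21.8 CPM in CD11b+ libraries, while Cd24a had 33.9 and 28.4 CPM in CD11b+CD11c+ libraries and 70.8 and 62.3 CPM in CD11b+ libraries. Innate lymphoid and NK cell markers were lower for 7 of 9 and higher for 1 in each. In CD11b+ over CD11c+ cells stromal and endothelial markers were higher for 8 of 10, epithelial for 8 of 12, and monocyte for 5 of 7 with 1 lower. In CD11b+CD11c+ over CD11c+ cells stromal and endothelial markers were lower for 6 of 10, epithelial higher for 1 of 12, and monocyte higher for 4 and lower for 3. Over all genes 27% were higher and 25% lower in the former comparison, and 20.4% and 22.5% in the latter. Among these subsets neutrophil markers were highest in CD11b+ libraries, at 1344 and 1189 TPM, with 124 and 148 TPM in CD11b+CD11c+ libraries and 2.29 and 6.92 TPM in CD11c+ libraries, where S100a8, Camp, Ngp and Mmp8 were listed at 0.

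Immediate early and heat shock genes, which can follow cell isolation, also differed. Of 18 genes 14 were higher in CD11b+CD11c+ over CD11c+ cells and 11 in CD11b+ over CD11c+ cells, that is 77.8% and 61.1%, where 20.4% and 27% of all genes were higher. Their sum was 6987 and 8465 TPM in CD11b+CD11c+ libraries and 6835 and 6953 TPM in CD11b+ libraries, against 3548 and 3971 TPM in CD11c+ libraries. The part of these genes and of the cell types above in the result was not tested.

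CD11b+CD11c+ and CD11b+ cells were close in the nuclear genes. No nuclear member was called in either direction by edgeR, where 3.79% of all genes were higher and 5.84% lower, and 2 nuclear members, Ndufa9 and Atp5g2, had an unadjusted p under 0.05. DESeq2 called 1 and limma on log2(TPM + 1) called 0. Both CD11b+CD11c+ libraries lay above both CD11b+ libraries for 22 nuclear members and below for 7, against 29.4% and 30% of all genes, and the median log2 fold change was 0.06. Atp5g2 had 107 and 104 CPM in CD11b+CD11c+ libraries and 89.5 and 81.1 CPM in CD11b+ libraries (0.31 ± 0.09, adjusted p = 0.089).

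All 13 mitochondrial genes had positive fold changes in this comparison, with a median log2 fold change of 0.29, but 1 of 13 was called (7.69%, where 3.79% of all genes were higher). This was mt-Nd5, with 2290.0 and 2261 CPM in CD11b+CD11c+ libraries, against 1724 and 1639 CPM in CD11b+ libraries (0.44 ± 0.09, adjusted p = 0.039). Leaving out any 1 of the 4 libraries ended this call. With no count filter and with DESeq2 9 of 13 were called, where 1111 and 1015 of all genes were higher, against 539 in the main test. In edgeR 8 had an unadjusted p under 0.05, and the share of all genes under that threshold was not computed. For mt-Co1, with 15081 and 14983 CPM in CD11b+CD11c+ libraries and 12880.0 and 11452 CPM in CD11b+ libraries, the adjusted p was 0.19.

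Other genes of the same system were taken from lists. The nuclear subunits of complex IV rose with the members in colonic over splenic MHCII+ cells, 11 of 14 tested being higher and 2 lower. Cox8a had 149 and 143 CPM in colonic MHCII+ libraries, against 76.7 and 79.8 CPM in splenic MHCII+ libraries (0.90 ± 0.09, adjusted p = 0.00025), and Cox7c gave 0.81. The 2 that fell were Cox6a2, a form typical of heart and muscle, and Cox7a2l, a factor that joins complexes III and IV. The fall of Cox7a2l was not called without splenic MHCII+ library 2 (edgeR adjusted p = 0.057). Cytochrome c, encoded by Cycs, had 60.9 and 66.1 CPM in colonic MHCII+ libraries, against 41.0 and 40.4 CPM in splenic MHCII+ libraries (0.64 ± 0.10, adjusted p = 0.0019), and Cyc1, cytochrome c1 of complex III, gave 0.92.

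Lists of genes that build or express the chain had smaller shares. Of 33 other assembly factors 8 were higher and 4 lower, of 23 genes that maintain, transcribe or process the mitochondrial genome 5 were higher and 3 lower, and of 78 mitochondrial ribosomal protein genes 19 were higher (24.4%) and 5 lower. These shares are all below the 31.6% and 28.7% of all genes. Nrf1, the activator whose core motif is shown above, had 28.9 and 21.1 CPM in colonic MHCII+ libraries, against 44.9 and 46.3 CPM in splenic MHCII+ libraries (-0.86 ± 0.17, adjusted p = 0.0046). Gabpb1, a subunit of an ETS-family activator, gave 0.84. Of 20 glycolysis genes 11 were higher and 4 lower. Aldoa of this list and Prorp of the mitochondrial genome list were not found under these symbols and were left out throughout. Of 13 hypoxia targets 7 were higher and 3 lower. Vegfa had 93.0 and 87.4 CPM in colonic MHCII+ libraries, against 10.99 and 8.79 CPM in splenic MHCII+ libraries (3.19 ± 0.14, adjusted p = 1e-05). Ucp2, an uncoupling protein of the inner membrane, was lower (-0.71, adjusted p = 0.00092), and Atpif1, the inhibitor of ATP synthase, was higher (0.49, adjusted p = 0.0037).

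**Figure D5:**
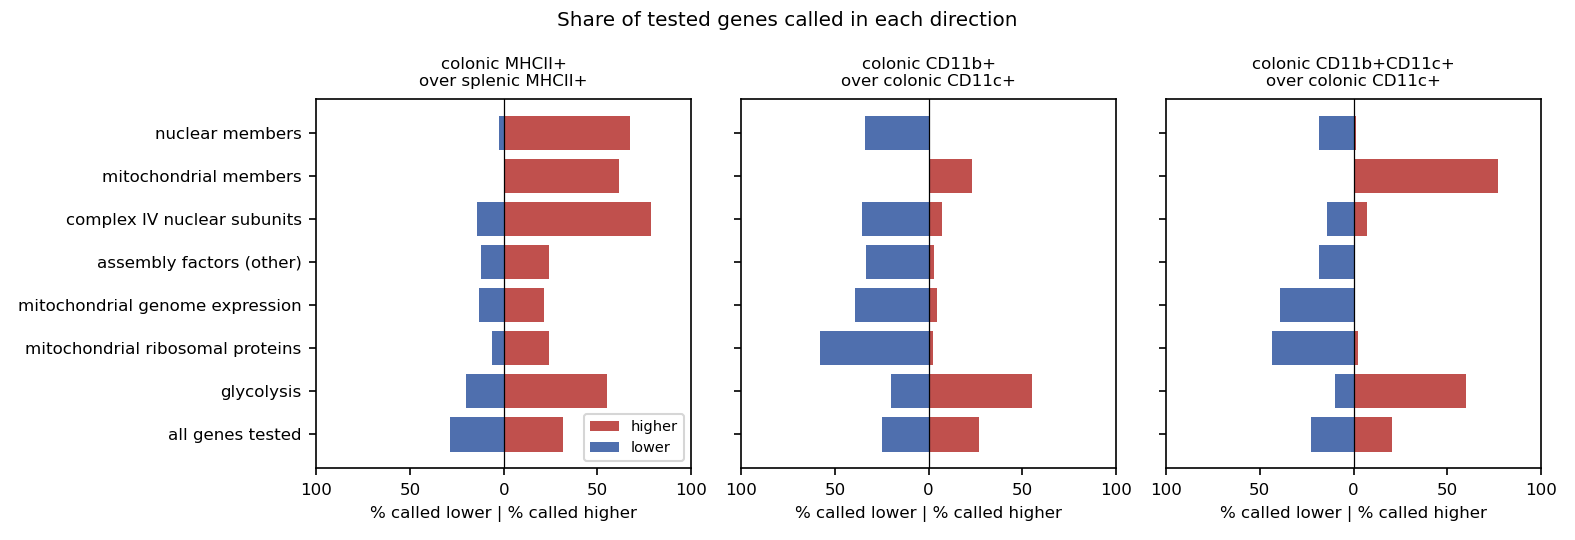
Percent of tested genes called higher (right, red) or lower (left, blue) in 3 comparisons, for the members, 5 related lists and all genes tested. Nuclear members reach 67.5% higher for colonic over splenic MHCII+ cells, mitochondrial ribosomal proteins 57.7% lower for CD11b+ over CD11c+ cells, and mitochondrial members 76.9% higher for CD11b+CD11c+ over CD11c+ cells.

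Mitochondrial ribosomal protein genes, whose products translate the mitochondrial mRNAs, were lower in both comparisons with CD11c+ cells. In CD11b+ over CD11c+ cells 2 of 78 were higher and 45 lower (57.7%), and in CD11b+CD11c+ over CD11c+ cells 2 were higher and 34 lower (43.6%), where 25% and 22.5% of all genes were lower. Mrpl42 had 25.5 and 22.2 CPM in CD11b+CD11c+ libraries, against 45.1 and 46.6 CPM in CD11c+ libraries (-0.94 ± 0.11, adjusted p = 0.0015). Genes of mitochondrial genome expression gave 1 higher and 9 lower of 23 in CD11b+ over CD11c+ cells and none higher and 9 lower in CD11b+CD11c+ over CD11c+ cells, so 39.1% were lower in each. Tfam, which packages and transcribes mitochondrial DNA, had 18.7 and 13.6 CPM in CD11b+CD11c+ libraries, against 29.3 and 22.1 CPM in CD11c+ libraries (-0.67 ± 0.20, adjusted p = 0.036). Tfam was at -0.412 without CD11b+CD11c+ library 2, and it was not called without this library or CD11c+ library 1 (edgeR adjusted p = 0.23 and 0.14). Polg, the mitochondrial DNA polymerase, was the gene of this list that rose in CD11b+ cells, with 99.1 and 90.4 CPM in CD11b+ libraries, against 50.005 and 54.7 CPM in CD11c+ libraries (0.86 ± 0.10, adjusted p = 0.0012).

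Complex IV subunits gave 1 higher and 5 lower of 14 in CD11b+ over CD11c+ cells and 1 higher and 2 lower in CD11b+CD11c+ over CD11c+ cells, with Cox7a2l lower in each (-0.51 and -0.36). The shares called lower, 35.7% and 14.3%, compare with 25% and 22.5% of all genes, so the first is somewhat above and the second below the background. Cox7a2l was not called without CD11b+ library 1 in the first comparison, nor in the second without CD11c+ library 1 or either CD11b+CD11c+ library. Cycs was lower in CD11b+ over CD11c+ cells (-0.76, adjusted p = 0.0026) and in CD11b+CD11c+ over CD11c+ cells (-0.64, adjusted p = 0.0057). Atpif1 had 61.4 and 61.2 CPM in CD11b+CD11c+ libraries and 54.2 and 49.5 CPM in CD11b+ libraries, against 95.7 and 97.97 CPM in CD11c+ libraries, and was called in both comparisons. Among 20 glycolysis genes 11 rose and 4 fell in CD11b+ over CD11c+ cells, and 12 rose and 2 fell in CD11b+CD11c+ over CD11c+ cells. The shares that rose were 55% and 60%, where 27% and 20.4% of all genes were higher. Eno1, an enolase, had 452 and 422 CPM in CD11b+CD11c+ libraries and 423 and 394 CPM in CD11b+ libraries, against 274 and 278 CPM in CD11c+ libraries. Of 11 regulators of mitochondrial biogenesis tested, 3 were higher and 2 lower in CD11b+ over CD11c+ cells. These shares, 27.3% and 18.2%, were near or below the 27% and 25% of all genes, and Myc was among those lower. Esrra, a nuclear receptor that activates respiratory genes, was higher in CD11b+ over CD11c+ cells (0.93, adjusted p = 0.0034) and lower in CD11b+CD11c+ over CD11b+ cells (-0.72, adjusted p = 0.032), where leaving out any 1 of the 4 libraries ended the call.

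Transcript forms were compared as shares of a gene's TPM, with no test. Many members have several transcripts with the same coding sequence, such as Atp5g1, whose 4 transcripts were given equal shares, and these cannot be told apart. Ndufv3 was represented by its short form of 315 coding bases, which took 88.3% to 95.04% of its TPM in every library. For Ndufv1 a 363-base transcript annotated to undergo nonsense-mediated decay took 8.3% and 13.4% in colonic MHCII+ libraries, against 37.3% and 34.3% in splenic MHCII+ libraries. In subsets it took 25.6% and 20.2% in CD11b+CD11c+ libraries, 7.23% and 28.6% in CD11b+ libraries and 29.6% and 18.3% in CD11c+ libraries, which overlap.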

How the data were processed

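Per the labels' protocols, mRNA was selected by poly(A) and directional libraries were made. The deposited estimated counts are kallisto's expected counts per transcript, not normalized for depth, and the deposited TPM values, corrected for effective length, stand beside them, per the file headers. Tools and build, per the submitters' processing notes, were kallisto 0.44.0, sleuth and mm10. No sleuth output was used here. Of transcript lengths 88.9% were multiples of 3, so lengths are coding lengths.

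Of 66760 transcripts 98.48% matched GENCODE M21. Those without a gene held 0.532 to 0.912% of counts. Gene sums were rounded and tested with edgeR 4.0.16 by its quasi-likelihood method (R 4.3.3, filterByExpr, TMM, group as the only term), with Benjamini-Hochberg adjustment over 15076 genes in the MHCII+ set and 14225 in the subsets, which were fitted apart. An adjusted p with no tool beside it is edgeR's. Standard errors came from the F statistic. The steps were tested on simulated data. Within groups log2 CPM correlated at 0.98 to 0.993 across genes and the counts gave a chi-square of 11.4 to 41.0 per gene, so no library appeared deposited a second time. Total counts of 12806139 to 41769042 set the precision. As the titles give the splenic libraries 1 number, their replicate numbers follow accession order and are names only.

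Named genes were all mitochondrial members, up to 4 nuclear members with the largest rise and fall among those called without overlap, the highest by TPM in each complex, the paralogs Atp5g1, Atp5g2, Atp5g3, Ndufa4 and Ndufa4l2, members outside the filter, and up to 2 called genes of each list by TPM. Further members of a complex were named after their values were seen. Members and lists were chosen with earlier results of these data known. Alternatives were DESeq2 size factors, no count filter, DESeq2 1.42.0, limma 3.58.1 on log2(TPM + 1), library sizes without mitochondrial genes, 1 fit over 10 libraries, a replicate block in the subsets and leaving out each library.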

Additional observations from a re-analysis of the deposited data

How the results depend on the processing

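No named gene called in the main test changed direction under any alternative run, and with library sizes that leave out mitochondrial genes all 157 named results kept direction and side of the threshold. With limma on log2(TPM + 1), which shifted the median of all genes by -0.134 for colonic over splenic MHCII+ cells, 26 nuclear members were higher and 5 lower with a median log2 fold change of 0.288, and 0 mitochondrial ones were higher. It gave 14 lower nuclear members and a median of -0.182 for CD11b+ over CD11c+ cells, 8 lower and 0 higher for CD11b+CD11c+ over CD11c+ cells, and 0 mitochondrial calls for CD11b+CD11c+ over CD11b+ cells. DESeq2 size factors and DESeq2 gave 0 lower nuclear members for colonic over splenic MHCII+ cells, and DESeq2 gave 7 higher mitochondrial ones for CD11b+ over CD11c+ cells, where the fit over all 10 libraries gave 0. For CD11b+CD11c+ over CD11c+ cells, DESeq2 size factors, no count filter, DESeq2 and the fit over 10 libraries gave 9 lower nuclear members each and mitochondrial medians of 0.540, 0.540, 0.541 and 0.565, and the last gave a nuclear median of -0.132. For CD11b+CD11c+ over CD11b+ cells, no count filter, DESeq2 and the fit over 10 libraries gave 1 higher nuclear member, no count filter and DESeq2 gave 9 mitochondrial ones, and no count filter and the fit over 10 libraries gave nuclear medians of 0.160 and 0.150 and mitochondrial medians of 0.387 and 0.377. As summed TPM in place of shares of counts, the log2 ratio was 0.392 for nuclear members in colonic over splenic MHCII+ cells, 0.229 for mitochondrial and -0.210 for nuclear members in CD11b+ over CD11c+ cells, and 0.465 and -0.186 in CD11b+CD11c+ over CD11c+ cells. Over all genes, 2177 were lower in CD11b+ over CD11c+ cells and 1876 in CD11b+CD11c+ over CD11c+ cells with limma, against 3550 and 3202 in the main test. In CD11b+CD11c+ over CD11b+ cells 1111 were higher with no count filter, 1015 with DESeq2, 1100 in the fit over 10 libraries and 229 with limma, against 539. Why these values moved was not tested.

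Leaving out each library in turn gave the ranges below. Such a fit leaves a group without replicates, and the number of all genes called changed in it as well. The counts of members called are therefore not set against a background here. They cannot be read as a result about the members alone. The medians and log2 ratios give the size of the effect. In colonic over splenic MHCII+ cells 29 to 48 nuclear members were higher and 0 to 3 lower, 4 to 13 mitochondrial ones were higher, and the medians were 0.389 to 0.496 (nuclear) and 0.228 to 0.971 (mitochondrial). In CD11b+ over CD11c+ cells 8 to 22 nuclear members were lower and 0 to 2 mitochondrial ones higher, with medians of -0.316 to -0.239 and 0.125 to 0.256. In CD11b+CD11c+ over CD11c+ cells 2 to 13 nuclear members were lower and 0 higher, 8 to 9 mitochondrial ones were higher, and the medians were -0.292 to -0.089 and 0.436 to 0.577. In CD11b+CD11c+ over CD11b+ cells 0 members were called, with medians of 0.000 to 0.201 and 0.239 to 0.428. The log2 ratio of shares in colonic over splenic MHCII+ cells was 0.290 to 0.891 for mitochondrial members, 0.467 to 0.557 for nuclear ones and -0.266 to 0.425 for their ratio. In CD11b+ over CD11c+ cells these were -0.004 to 0.193, -0.406 to -0.291 and 0.402 to 0.485, in CD11b+CD11c+ over CD11c+ cells 0.260 to 0.345, -0.406 to -0.267 and 0.612 to 0.666, and in CD11b+CD11c+ over CD11b+ cells 0.110 to 0.307, -0.059 to 0.081 and 0.155 to 0.238.

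Of these 157 named results 15 changed sign under some alternative, none of them called. In colonic over splenic MHCII+ cells Ndufa4 was -0.034 with limma and -0.01 to 0.272 over libraries left out, Atp5g2 -0.643 to 0.189, mt-Nd2 -0.038 to 0.979, mt-Nd4l -0.11 to 0.708 and mt-Nd5 -0.19 to 0.666. In CD11b+ over CD11c+ cells Sdhd was 0.053 and Atp5g1 0.051 with limma, mt-Co3 was -0.031 with no count filter, and with libraries left out Sdhd was -0.115 to 0.043, Atp5g1 -0.147 to 0.07, mt-Co1 -0.018 to 0.121, mt-Co3 -0.089 to 0.071 and mt-Atp8 -0.155 to 0.288. In CD11b+CD11c+ over CD11c+ cells Sdhd was 0.010 with DESeq2 size factors, 0.009 with no count filter, 0.011 with DESeq2, 0.035 in the fit over 10 libraries and -0.133 to 0.025 with libraries left out. In CD11b+CD11c+ over CD11b+ cells the same 4 settings gave 0.017, 0.082, 0.018 and 0.072 for Ndufa4 and 0.014, 0.078, 0.015 and 0.069 for Sdhd, and no count filter and the fit over 10 libraries gave 0.056 and 0.046 for Uqcrh. With libraries left out these were -0.095 to 0.143, 0.001 to 0.061 and -0.076 to 0.075, and Ndufaf8 was -0.215 to 0.062.

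The subsets share replicate numbers, but deviations of same-numbered libraries correlated at -0.005, -0.06 and 0.304, so the numbers were not taken to pair them. With a replicate block 30 nuclear members were lower and 3 mitochondrial ones higher in CD11b+ over CD11c+ cells, 17 lower, 0 higher and 12 mitochondrial ones higher in CD11b+CD11c+ over CD11c+ cells, and 0 nuclear and 1 mitochondrial one higher in CD11b+CD11c+ over CD11b+ cells. For the MHCII+ set no paired analysis was possible because the splenic titles carry 1 number.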
